A study of Bos taurus with 42 samples.

Results

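The transcripts described here are those of *TGFB1* and *TGFB3*, which encode transforming growth factor-beta (TGF-β) ligands, and of *SMAD4*, which encodes the SMAD protein shared by the branches of this signaling family. They are 3 of the 22,664 genes counted in the series and were taken by their Ensembl identifiers, ENSBTAG00000020457 for *TGFB1*, ENSBTAG00000012004 for *TGFB3* and ENSBTAG00000006919 for *SMAD4*, as the study pairs identifiers with symbols. TGF-β ligands are secreted in a latent complex and, once released, bring together type I and type II serine/threonine kinase receptors at the cell surface. The activated receptors phosphorylate receptor-regulated SMADs, which join SMAD4 and enter the nucleus to control transcription, while inhibitory SMADs and ubiquitin ligases dampen the signal. In developing tissues the family is known for controlling extracellular matrix, mesenchymal differentiation and the timing of myogenesis.

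RNA-Seq libraries came from the cerebrum, the liver and the left hind limb (muscle) of 14 bovine fetuses collected on day 50 of gestation, with 1 library per tissue and fetus. The dams were Angus-cross heifers bred by artificial insemination to a single sire. From breeding on, 7 heifers were fed to meet 100% of the requirement for a set daily gain (CON) and 7 were offered 60% of what CON heifers ate (RES). The CON fetuses were 6 males and 1 female, and the RES fetuses were 5 males and 2 females. The deposited read counts totaled 4,145,093 to 7,576,159 per cerebrum library, 6,658,218 to 12,741,299 per liver library and 5,384,018 to 7,592,149 per muscle library. Levels are given as CPM, the read count scaled to a common library size with trimmed mean of M-values (TMM) factors over the 42 libraries. CPM is not corrected for transcript length, so levels were compared between libraries, and a gene said to lead a marker list is only the one with the most reads.

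The summed neuronal, hepatocyte and skeletal muscle markers were highest in the tissue of their label, although single genes overlapped between tissues. The 8 neuronal markers summed to between 2048 and 8901 CPM in the cerebrum, with *STMN2* carrying the most reads, and *NEUROD2* had no count in any liver library. Of these, *ELAVL4*, *TUBB3* and *DCX* reached 135, 425 and 15.1 CPM in the muscle library of CON fetus 73. Their lowest cerebrum values were 60.4, 379 and 1.01 CPM. The 6 hepatocyte markers with an identifier summed to at least 107,599 CPM in every liver library, with *SERPINA1* carrying the most reads. Among the hepatocyte markers, *TTR*, which encodes the carrier protein transthyretin and is known from the choroid plexus as well, overlapped with the cerebrum. It ranged from 1186 to 4276 CPM in the liver and averaged 687 CPM in the cerebrum. There it reached 5632 CPM in 1 library and at most 1102 CPM in the others. The 7 skeletal muscle markers with an identifier summed to between 1584 and 12,164 CPM in muscle, led by *MYH3*, and *MYOD1* had no count in any liver library. Hind limb libraries carried markers of other cell types as well. The 2 fibroblast and mesenchyme markers with an identifier, led by *MFAP4*, summed to between 274 and 450 CPM there, and the 3 cartilage markers, led by *COL9A1*, to between 35.7 and 203 CPM. In such bulk samples fewer cells of a type and less RNA per cell cannot be told apart.

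Several libraries stood apart from the rest of their group. The cerebrum library of RES fetus 1 had the lowest neuronal sum (2048 CPM), and it had the highest summed markers for several other cell types. These included 259 CPM for skeletal muscle (led by *ACTC1*, at most 24.0 CPM in the other cerebrum libraries), 142 CPM for the 3 meningeal markers (led by *SLC13A4*, at most 21.4 CPM in the others) and 193 CPM for the 2 fibroblast and mesenchyme markers (at most 47.6 CPM in the others). The hepatocyte sum was 6091 CPM, of which *TTR* made up 5632 CPM (at most 1175 CPM for the sum in the others). The sums were also highest in it for red cells (263 CPM against at most 86.5 CPM), endothelium (114 CPM against at most 47.8 CPM), cartilage (93.2 CPM against at most 35.8 CPM), macrophages (48.4 CPM against at most 17.7 CPM) and platelets (3.40 CPM against at most 1.87 CPM). Of the 7 skeletal muscle markers, 6 were highest in this library, among them *MYOG*, which encodes the myogenic factor myogenin, at 6.17 CPM (at most 0.408 CPM in the others). The other was *MYOD1*, which defines myoblasts, at 0.378 CPM in this library, at 0.505 CPM in RES fetus 6 and at 0 in 11 of the 14. The share of counts on 12 mitochondrial genes was 14.7% in the cerebrum of RES fetus 1 and at most 6.89% in the other cerebrum libraries. The cerebrum library of CON fetus 23 had the highest neuronal sum (8901 CPM) and a TMM factor of 0.746, against 1.05 to 1.43 in the other cerebrum libraries. Its sum is scaled with that same low factor, and the sum by total counts is not given here. In the liver, the mitochondrial share was 67.7% in RES fetus 1, 44.9% in CON fetus 2, 35.6% in RES fetus 6 and 30.5% in RES fetus 33, and at most 16.4% in the other 10 libraries. The muscle library of CON fetus 73 had a neuronal sum of 1499 CPM, and that of RES fetus 1 had 345 CPM, against at most 59.8 CPM in the other muscle libraries. Results that rest on these libraries are given with and without them where enough fetuses remain, and the part that these signals have in the results was not tested.

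The transcript of *TGFB1*, the ligand known as an immunoregulatory and matrix-inducing cytokine, was lowest in the cerebrum, and on the TMM scale it was higher in the liver than in muscle. It ranged from 13.0 to 25.3 CPM in the liver (median 14.4, mean 16.4 ± 4.19 SD, n = 14), from 5.55 to 11.3 CPM in muscle (median 8.43, mean 8.55 ± 1.62 SD, n = 14) and from 0.185 to 3.04 CPM in the cerebrum (median 1.59, mean 1.62 ± 0.770 SD, n = 14). On this scale the libraries of the 3 tissues did not overlap. The cerebrum values rested on 1 to 25 counts per library, and the 1 count in CON fetus 2 was below the floor of 3 counts, which equals 0.359 to 0.646 CPM in the cerebrum. Such floors cover counting error only. Over the 42 libraries, edgeR's quasi-likelihood test gave a log2 difference of 0.92 (SE 0.17, adjusted p = 4.58e-06) for liver minus muscle, -2.37 (SE 0.19, adjusted p = 1.40e-14) for cerebrum minus muscle and -3.29 (SE 0.19, adjusted p = 1.15e-19) for cerebrum minus liver. This fit, used for all tissue tests, had no term for the fetus and took the 42 libraries of 14 fetuses as independent. With a replicate block for fetuses the same differences were 0.91, -2.41 and -3.32 (edgeR, adjusted p = 1.32e-05, 1.10e-12 and 1.15e-16). The order of liver and muscle depended on the scaling. With CPM taken from total counts without TMM factors, an alternative added after seeing the data, *TGFB1* ranged from 4.79 to 12.4 CPM in the liver (median 10.4) and from 7.13 to 14.4 CPM in muscle (median 10.9), the ranges overlapped, and liver minus muscle was -0.17 (edgeR, adjusted p = 0.420). With the mitochondrial genes also taken out of the total, it was 0.11 (adjusted p = 0.552). By total counts the median liver minus muscle difference over all genes was -1.23, where it was -0.21 with TMM factors. The cerebrum was below every liver and muscle library on each of these scales. The tissues differed in most genes, with 83.6% of the 15,972 genes tested called between cerebrum and liver, 68.1% between cerebrum and muscle and 82% between liver and muscle.

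*TGFB3*, a ligand of palate and lung development, was highest in muscle. It ranged from 65.0 to 126 CPM in muscle (median 104.1, mean 100.3 ± 17.3 SD, n = 14), on 599 to 1133 counts. In the liver it ranged from 1.78 to 8.30 CPM (median 4.55, mean 4.61 ± 2.05 SD, n = 14). In the cerebrum it ranged from 2.37 to 56.0 CPM (median 3.71), where RES fetus 1 had 445 counts and the other 13 libraries had 11 to 31. No cerebrum or liver library reached the lowest muscle library, and without RES fetus 1 the cerebrum and liver ranges overlapped. The log2 difference was -4.45 (SE 0.38, adjusted p = 5.04e-14) for liver minus muscle and -3.94 (SE 0.37, adjusted p = 2.33e-12) for cerebrum minus muscle, and the latter was -4.89 (adjusted p = 2.39e-25) without RES fetus 1. Cerebrum and liver did not differ beyond the spread (0.52, SE 0.38, adjusted p = 0.196), and the sign turned without RES fetus 1 (-0.36, adjusted p = 0.0539). With the mitochondrial share as a covariate, an alternative added after seeing the data, the difference was 1.15 and passed the threshold (adjusted p = 0.00421), as it did by total counts without TMM factors (1.52, adjusted p = 0.000211).

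*SMAD4*, the common partner of the receptor-regulated SMADs, was lower in the liver than in both other tissues. It ranged from 9.54 to 45.8 CPM in the liver (median 29.6, mean 27.6 ± 11.8 SD, n = 14), from 54.2 to 227 CPM in the cerebrum (median 93.9, mean 104.9 ± 40.6 SD, n = 14) and from 88.5 to 125 CPM in muscle (median 108.4, mean 107.7 ± 10.4 SD, n = 14). All liver libraries were below all libraries of the other tissues. The log2 difference was 1.94 (SE 0.18, adjusted p = 1.62e-13) for cerebrum minus liver and -1.996 (SE 0.18, adjusted p = 9.20e-14) for liver minus muscle. The cerebrum and muscle did not differ beyond their spread (-0.05, SE 0.17, adjusted p = 0.798), and the sign of this small difference turned with DESeq2's size factors (0.02). Muscle was the tissue in which *SMAD4* varied least, with a coefficient of variation of 9.66% where it was 38.7% for cerebrum libraries and 42.6% for liver libraries. Without CON fetus 23 it was 21.9% for the cerebrum, and by total counts it was 11.2% for muscle, 23.5% for the cerebrum and 59.0% for the liver.

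**Figure D1:**
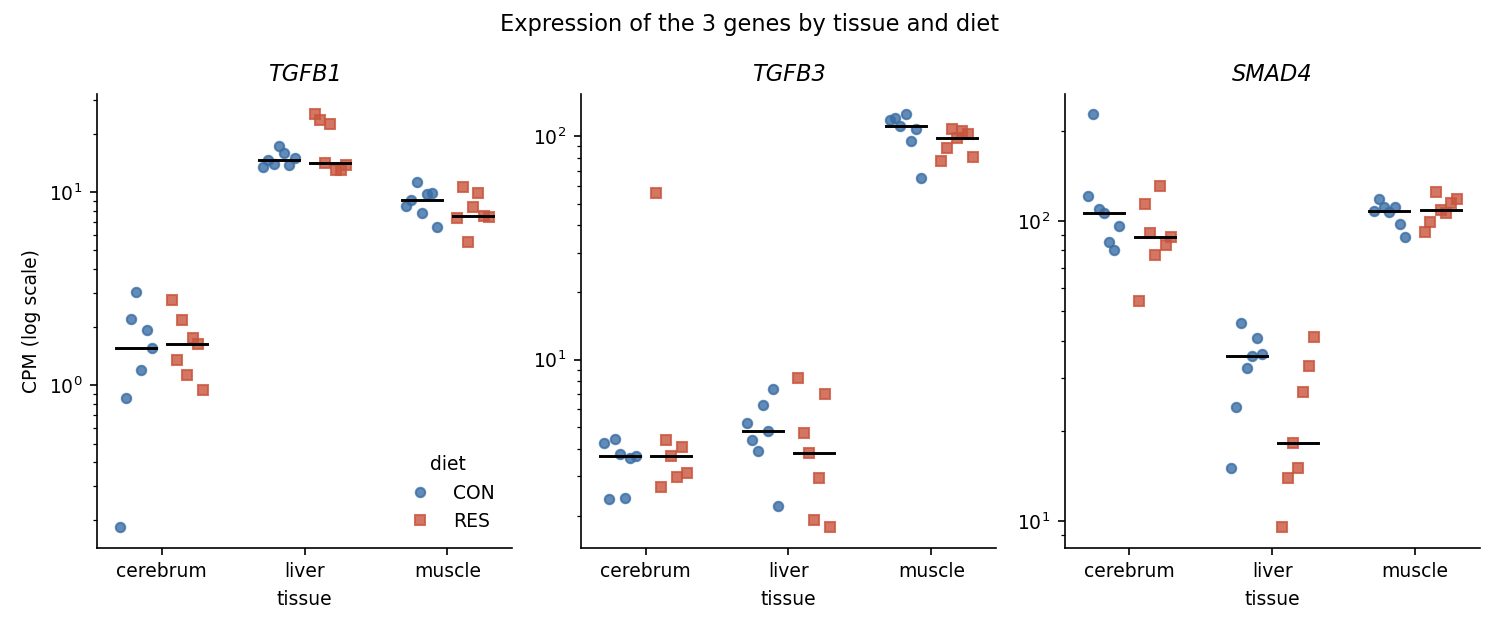
CPM (log axis, one scale per gene) of TGFB1, TGFB3 and SMAD4 in each library, by tissue and diet (circles CON, squares RES), with a black bar at the median of the 7 fetuses. On this TMM scale the TGFB1 values of the 3 tissues do not overlap (by total counts those of liver and muscle do), TGFB3 is highest in muscle with 1 cerebrum library at 56.0 CPM, and SMAD4 is lowest in the liver.

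Of 88 genes listed for the pathway, 39 had an identifier paired with a symbol and were counted, the 3 genes among them. The type II receptor *TGFBR2*, the receptor-regulated *SMAD2* and *SMAD3* of the TGF-β branch and the inhibitory *SMAD7* were among the listed genes not analysed here, so the counts cover only part of the pathway. Between cerebrum and muscle, 5 of the 39 were higher in the cerebrum and 29 lower (edgeR, adjusted p under 0.05), where 35.9% of all genes were higher and 32.2% lower. Between liver and muscle, 5 were higher in the liver and 31 lower, against 36.6% and 45.5% of all genes. The median log2 difference over the 39 genes was -2.16 for cerebrum minus muscle and -1.996 for liver minus muscle, where the medians over all genes were 0.06 and -0.21. Between cerebrum and liver, 16 were higher in the cerebrum and 16 lower, against 45.2% and 38.5% of all genes. By total counts without TMM factors, 1 was higher in the liver than in muscle and 34 lower (16.4% and 69.1% of all genes), 24 were higher in the cerebrum than in the liver and 11 lower (65.8% and 19.9%), and 4 were higher in the cerebrum than in muscle and 29 lower (32.6% and 28.9%).

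Among the ligands, the remaining TGF-β isoform *TGFB2* was, like *TGFB3*, highest in muscle, with a mean of 60.8 CPM (10.2 SD, n = 14) there, 5.79 CPM (1.58 SD) in the cerebrum and 0.607 CPM (0.664 SD) in the liver. The log2 difference of *TGFB2* was -3.38 (adjusted p = 1.36e-18) for cerebrum minus muscle. It was called lower in the liver than in muscle as well (adjusted p = 1.03e-25), but with 0 to 13 counts per liver library (median 2, under the floor of 3) the size of that difference is not given. *TGFBR1*, the type I receptor, was lower in the liver than in the cerebrum (log2 difference 4.13 for cerebrum minus liver, adjusted p = 8.52e-14) and than in muscle (-3.47 for liver minus muscle, adjusted p = 8.60e-12). The liver values of *TGFBR1* rested on 1 to 31 counts per library (median 7), the lowest under the floor of 3, so these sizes are loose. The co-receptor *ENG*, which is an endothelial gene as well, showed the opposite order, with means of 184.6 CPM in the liver, 67.5 CPM in muscle and 12.4 CPM in the cerebrum, although by total counts its liver minus muscle difference was 0.24 (adjusted p = 0.319). On the TMM scale the liver had the lowest mean levels of *TGFB2*, *TGFBR1* and *SMAD4* among the 3 tissues, and the highest of *TGFB1* and *ENG*.

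*SMAD5*, a receptor-regulated SMAD of the bone morphogenetic protein (BMP) branch, was, like *SMAD4*, lowest in the liver. Its log2 difference was 2.74 (adjusted p = 3.56e-16) for cerebrum minus liver, -2.37 (adjusted p = 2.93e-14) for liver minus muscle and 0.37 (adjusted p = 0.0767) for cerebrum minus muscle. *SMAD9*, of the same branch, was highest in muscle, where cerebrum minus muscle was -2.95 (adjusted p = 7.92e-16) and liver minus muscle -2.21 (adjusted p = 5.16e-13). The inhibitory *SMAD6* was highest in the liver, with a log2 difference of -3.94 for cerebrum minus liver (adjusted p = 1.20e-19) and 1.38 for liver minus muscle (adjusted p = 4.83e-08), which by total counts was 0.36 (adjusted p = 0.164). The receptors *ACVR1*, *ACVR1B*, *BMPR1A* and *BMPR2* of the activin and BMP branches were all lower in the liver than in muscle and in the cerebrum. Of the 11 listed target genes, 10 were lower in the cerebrum than in muscle, where 32.2% of all genes were, and 10 lower in the liver than in muscle, where 45.5% were (69.1% by total counts). Among them was *TGFBI*, a matrix protein named for its induction by TGF-β (log2 difference -3.95 and -2.03, adjusted p = 1.67e-11 and 2.74e-06). Without RES fetus 1 the cerebrum mean of *TGFBI* was 11.6 CPM in place of 27.1, and the difference between cerebrum and muscle was -5.00 (adjusted p = 2.17e-27).

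To address whether maternal intake moved these transcripts, RES was compared with CON within each tissue. None of the 3 genes passed the adjusted threshold in any tissue, and neither did any gene tested (edgeR's quasi-likelihood test, 0 of 15,151 genes for cerebrum, 0 of 13,527 for liver and 0 of 14,947 for muscle, 0% called). At an unadjusted p under 0.05, 386 cerebrum genes (2.55%), 3260 liver genes (24.1%) and 1481 muscle genes (9.91%) passed. By the Wald test of DESeq2, 86 liver genes and 13 muscle genes were called, none of them *TGFB1*, *TGFB3* or *SMAD4*, and 0 in the cerebrum, where it gave no p for *TGFB3*. The diet by tissue interaction was called for no gene (edgeR, 0 of 15,972, with 897 or 5.62% at an unadjusted p under 0.05), while DESeq2's likelihood ratio test called 2 genes. Its adjusted p by edgeR was 0.888 for *TGFB1*, 0.829 for *TGFB3* and 0.830 for *SMAD4*.

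In the cerebrum, *TGFB1* ranged from 0.185 to 3.04 CPM in CON (median 1.56) and from 0.946 to 2.77 CPM in RES (median 1.63). The groups overlapped and the log2 fold change of RES minus CON was 0.13 (SE 0.43, adjusted p = 0.999). *TGFB3* ranged from 2.37 to 4.42 CPM in CON (median 3.71) and from 2.69 to 56.0 CPM in RES (median 3.70). Here 6 of the 7 RES libraries lay within the CON range, and only RES fetus 1 lay above it. The log2 fold change was 1.66 (SE 0.64, unadjusted p = 0.0194, adjusted p = 0.999), and without RES fetus 1 it was 0.01 (unadjusted p = 0.963). *SMAD4* ranged from 79.9 to 227 CPM in CON (median 106.8) and from 54.2 to 131 CPM in RES (median 88.8). CON fetus 23 was the high library and RES fetus 1 the low one, the groups otherwise overlapped, and the log2 fold change was -0.37 (SE 0.26, adjusted p = 0.999). Without these 2 fetuses, an alternative added after seeing the data, the log2 fold changes were -0.12 for *TGFB1*, -0.04 for *TGFB3* and 0.000842 for *SMAD4*.

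The same cerebrum library was high for most of the listed target genes. RES fetus 1 had the highest CPM of the 14 libraries for 10 of the 11 target genes (*ID2*, named after its value was seen, was the exception), where 23.3% of all genes tested in the cerebrum were highest in it. *TGFBI* was at 228 CPM in it against 5.21 to 18.7 CPM in the other 13 libraries. *CCN2*, which encodes connective tissue growth factor, was at 241 CPM against 15.2 to 139.6 CPM. At an unadjusted p under 0.05, 6 of the 36 pathway genes tested in the cerebrum were higher in RES and 0 lower, where 2.55% of all genes passed, and 25 of the 36 had a positive fold change. Without RES fetus 1, 0 of the 36 passed, where 0.718% of all genes did, and 16 had a positive fold change, with a median of -0.05 over the list and -0.04 over all genes. Without fetuses 1 and 23, 1 of the 36 passed, *FST* (named after its value was seen), where 1.09% of all genes did. The markers of mesenchyme, meninges, skeletal muscle, red cells, endothelium, cartilage, macrophages and platelets and the hepatocyte list with *TTR* were all high in this library. So was its share of mitochondrial counts. All of these move with this result, and their part in it was not tested.

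**Figure D2:**
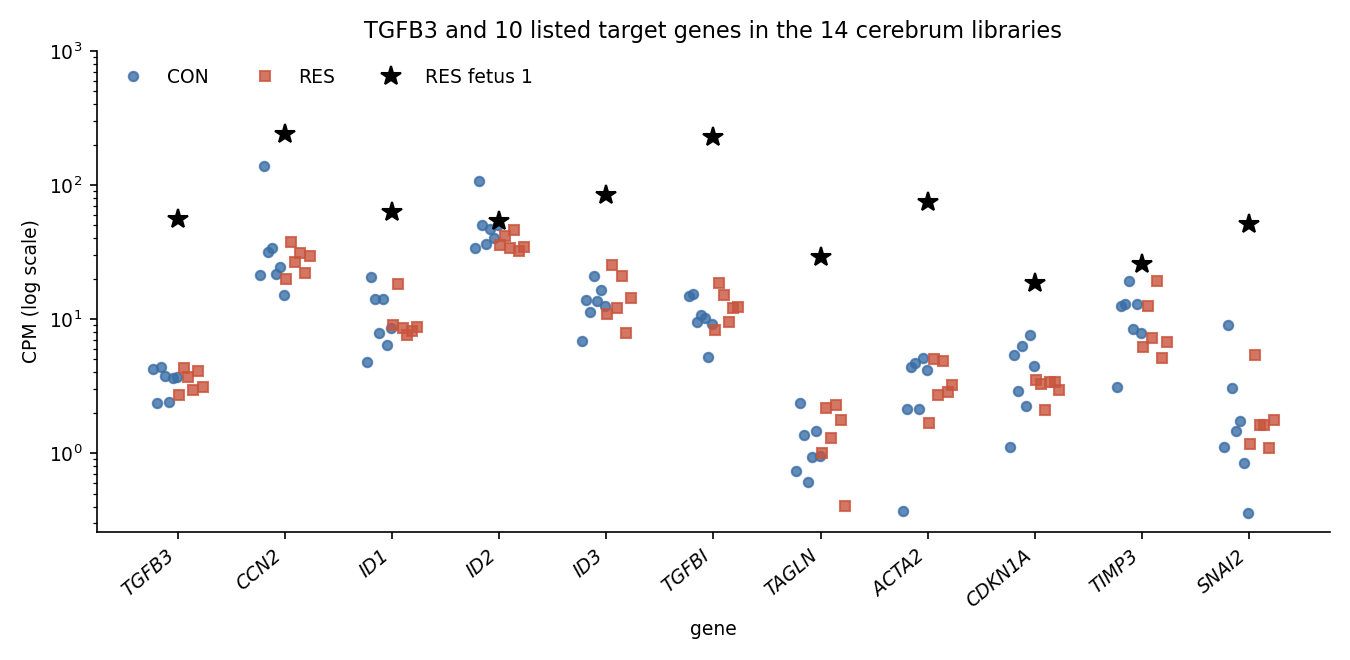
CPM (log axis) of TGFB3 and of 10 of the 11 listed target genes in the 14 cerebrum libraries (circles CON, squares RES, star RES fetus 1). The star lies above the other 13 libraries for TGFB3 (56.0 CPM) and for every target gene plotted except ID2.

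In the liver, *SMAD4* had the lowest unadjusted p of the 3 genes. It ranged from 15.0 to 45.8 CPM in CON (median 35.5) and from 9.54 to 41.1 CPM in RES (median 18.2). The groups overlapped, with CON fetus 2 among the low values and RES fetus 70 among the high ones. The log2 fold change was -0.76 (SE 0.29, unadjusted p = 0.0183, adjusted p = 0.184), in a tissue where 24.1% of all genes had an unadjusted p under 0.05. *TGFB1* ranged from 13.5 to 17.3 CPM in CON (median 14.7) and from 13.0 to 25.3 CPM in RES (median 14.2). RES fetuses 1, 6 and 33 had 25.3, 23.5 and 22.5 CPM and the other 4 RES libraries had 13.0 to 14.2 CPM. The first 3 lay above the CON range, and the other 4 lay in its lower part or just below it. The standing of these 3 depended on the scaling. By total counts without TMM factors they had 4.79, 10.2 and 10.5 CPM, within or below the CON range of 5.64 to 12.4 CPM, and with the mitochondrial genes out of the total they had 14.8, 15.8 and 15.1 CPM, above the CON range of 10.3 to 13.2 CPM. The log2 fold change of *TGFB1* was 0.27 (SE 0.18, adjusted p = 0.340), and by total counts it was -0.19 (adjusted p = 0.683). *TGFB3* ranged from 2.21 to 7.37 CPM in CON (median 4.77) and from 1.78 to 8.30 CPM in RES (median 3.84), and its log2 fold change was -0.21 (SE 0.37, adjusted p = 0.718).

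On the TMM scale, levels of *SMAD4* in the liver went with the mitochondrial share of the library. Over the 14 fetuses, Pearson's r between log2 CPM of *SMAD4* and log2 of the mitochondrial share was -0.957 (permutation p = 2e-05, the smallest that 100,000 resamples can give, two-sided, adjusted p = 0.00018 over 9 relations), and Spearman's rho was -0.947 (permutation p = 2e-05, adjusted p = 0.00018). Pearson's r was -0.932 without the 2 fetuses farthest from the median share. Within diets r was -0.981 in CON (exact permutation p = 0.000198, n = 7) and -0.943 in RES (exact permutation p = 0.00357, n = 7). With the mitochondrial share as a covariate, the log2 fold change of *SMAD4* was -0.18 (edgeR, adjusted p = 0.910), and with the 4 libraries over 30% left out it was -0.43 (SE 0.25, unadjusted p = 0.107, adjusted p = 0.633). Over all liver genes, 5.52% had an unadjusted p under 0.05 between diets with this covariate, where 24.1% did without it. How many genes go with the share as *SMAD4* does was not counted, so the relation is not shown to be particular to *SMAD4*. For *TGFB1* in the liver r was 0.632 (permutation p = 0.0215, adjusted p = 0.0485) and rho 0.314 (permutation p = 0.275, adjusted p = 0.496), with 0.893 in RES (exact permutation p = 0.00794, n = 7) and -0.205 in CON (exact permutation p = 0.655, n = 7), so the relation did not hold within CON. The RES values of *TGFB1* formed a set of 3 and a set of 4, each too small to test the relation within it. CON fetus 2, whose share was 44.9%, had 13.5 CPM of *TGFB1*, and with the 4 libraries left out the fold change of *TGFB1* was -0.17 (adjusted p = 0.709). For *TGFB3* in the liver r was 0.287 (permutation p = 0.316, adjusted p = 0.406) and rho 0.257 (permutation p = 0.373, adjusted p = 0.560).

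**Figure D3:**
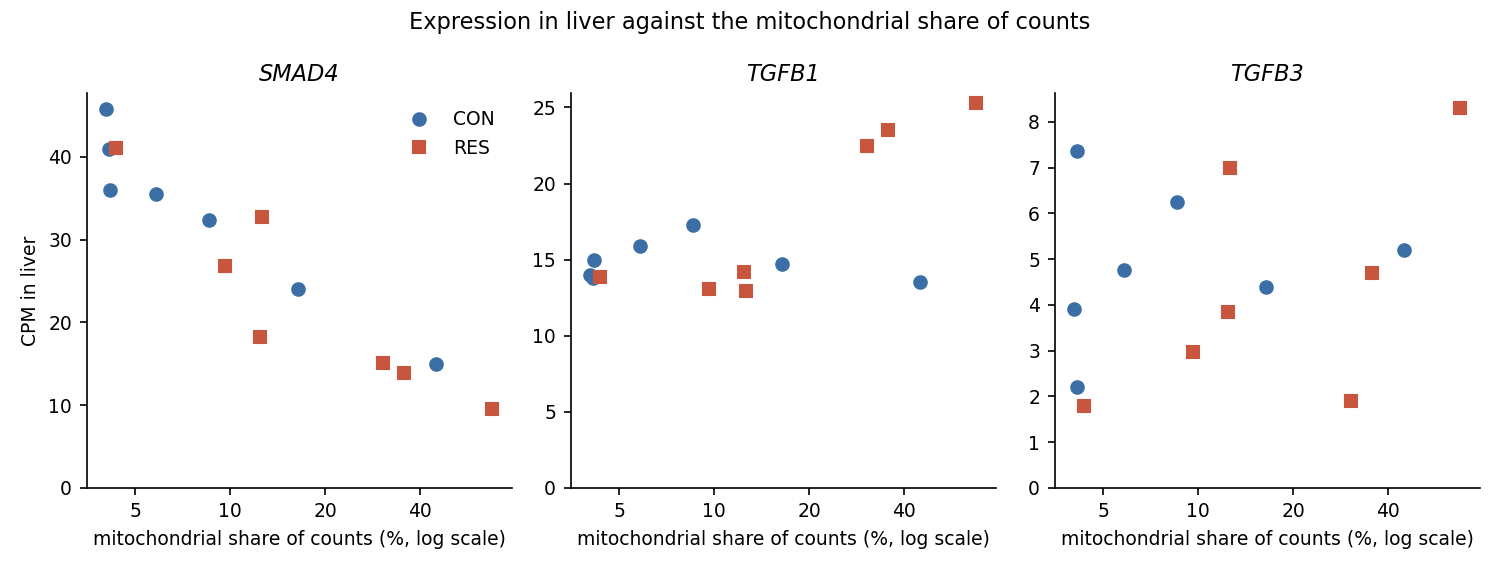
CPM of SMAD4, TGFB1 and TGFB3 in the 14 liver libraries (axes start at 0) against the share of counts on 12 mitochondrial genes (percent, log axis), circles CON and squares RES. SMAD4 runs from 45.8 CPM at a share of 4.04% to 9.54 CPM at 67.7%, and on this TMM scale the 3 RES libraries over 30% lie above the others for TGFB1 while the CON library at 44.9% does not.

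In the other tissues the same relation was tested for each gene. In muscle, *SMAD4* went down with the mitochondrial share (r = -0.761, permutation p = 0.00258, adjusted p = 0.0116, rho = -0.582, permutation p = 0.031, adjusted p = 0.0931, n = 14), although the share spanned only 2.35% to 4.03% there, r was -0.860 in CON and -0.776 in RES (exact permutation p = 0.0198 and 0.0375, n = 7 each), and r was -0.493 without the 2 farthest fetuses. In the cerebrum, *TGFB3* had r = 0.857 (permutation p = 0.00956, adjusted p = 0.0287, rho = 0.644, permutation p = 0.0156, adjusted p = 0.0701, n = 14), with r = 0.340 in CON and 0.954 in RES (exact permutation p = 0.47 and 0.0131, n = 7 each). It was 0.309 without the 2 farthest fetuses, so this relation rests on them. The remaining relations, those of *TGFB1* and *SMAD4* in the cerebrum and of *TGFB1* and *TGFB3* in muscle, had adjusted p between 0.145 and 0.884 for r. Within diets, *TGFB3* in muscle had r = -0.912 in CON and -0.653 in RES (exact permutation p = 0.0163 and 0.095, n = 7 each). *SMAD4* in the cerebrum had 0.395 in CON and -0.885 in RES (exact permutation p = 0.345 and 0.0103, n = 7 each), and *TGFB1* there had -0.822 and 0.612 (exact permutation p = 0.03 and 0.134, n = 7 each). For *TGFB1* in muscle r was -0.507 in CON and 0.0221 in RES (exact permutation p = 0.246 and 0.952, n = 7 each).

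Among the pathway genes tested in the liver, 2 of 36 were higher in RES and 8 lower at an unadjusted p under 0.05, where 24.1% of all genes passed, and none passed adjustment. *SMAD5* and *BMPR2* were among the lower ones, with log2 fold changes of -0.70 (unadjusted p = 0.0446) and -0.54 (unadjusted p = 0.0462), and *ENG* and *GDF1*, a GDF ligand, were the higher ones (0.62, unadjusted p = 0.0164, and 1.08, unadjusted p = 0.0077, adjusted p = 0.184 for both). The gene with the lowest p of the list was *THBS1*, which encodes thrombospondin 1, an activator of latent TGF-β, at -1.51 (SE 0.49, unadjusted p = 0.0077, adjusted p = 0.184). With the 4 libraries over 30% mitochondrial counts left out, 0 were higher and 2 lower, where 6.86% of all genes passed. These 2 were *BMP7* and *TGFBI*, neither among the 8 before. The log2 fold changes of *SMAD5*, *BMPR2*, *ENG*, *GDF1* and *THBS1* were then -0.42, -0.49, 0.02, 0.70 and -1.08. With the mitochondrial share as a covariate, 0 of the 36 passed in either direction, where 5.52% of all genes did. The same 5 genes were then at -0.12, -0.12, 0.23, 0.49 and -0.30.

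In muscle the CON and RES ranges of all 3 transcripts overlapped. *TGFB3* ranged from 65.0 to 126 CPM in CON (median 111.0) and from 77.4 to 108 CPM in RES (median 98.2). CON fetus 73 was the lowest of all, and the log2 fold change was -0.16 (SE 0.13, adjusted p = 0.662). Without CON fetus 73, the library with neuronal markers, it was -0.24 (SE 0.09, unadjusted p = 0.0175, adjusted p = 0.505). *TGFB1* ranged from 6.62 to 11.3 CPM in CON (median 9.15) and from 5.55 to 10.6 CPM in RES (median 7.53), with a log2 fold change of -0.16 (SE 0.15, adjusted p = 0.720). *SMAD4* ranged from 88.5 to 119 CPM in CON (median 108.1) and from 91.7 to 125 CPM in RES (median 108.7), with a log2 fold change of 0.01 (SE 0.08, adjusted p = 0.970).

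Of the 38 pathway genes tested in muscle, 0 were higher in RES and 3 lower at an unadjusted p under 0.05, where 9.91% of all genes passed. The lowest p belonged to *LTBP2*, a latent TGF-β binding protein of the extracellular matrix, whose log2 fold change was -0.62 (SE 0.13, unadjusted p = 0.00029, adjusted p = 0.457). *PMEPA1*, a feedback inhibitor of SMAD signaling, was at -0.42 (unadjusted p = 0.0327, adjusted p = 0.483). Without CON fetus 73, 4 were lower and 0 higher, where 9.58% of all genes passed.

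**Figure D4:**
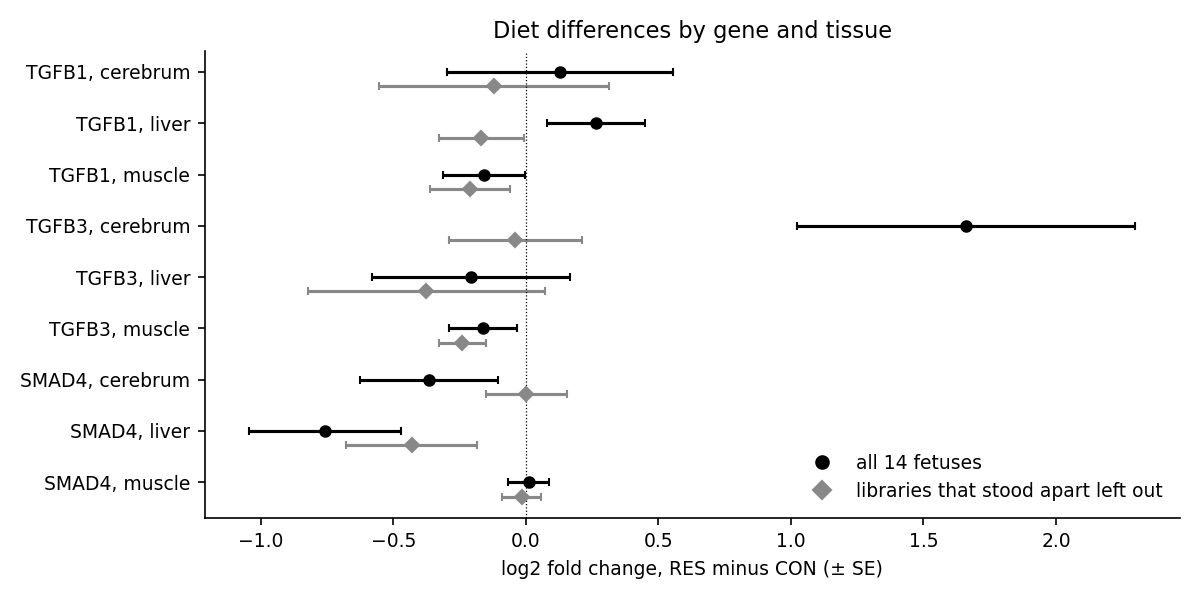
Log2 fold change of RES minus CON (x axis, bars ± SE) for the 3 genes in each tissue, with all 14 fetuses (black circles) and with the libraries that stood apart left out (grey diamonds: fetuses 1 and 23 in the cerebrum, the 4 libraries over 30% mitochondrial counts in the liver, fetus 73 in muscle). The TGFB3 estimate in the cerebrum moves from 1.66 to -0.04, and no estimate passed the adjusted threshold.

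The study compared correlations between genes in CON and RES, and it named pairs of these genes with other genes as co-expressed. The correlations were computed on variance-stabilized values (VST, a log2-like scale) over the 7 fetuses of each diet, with exact permutation tests. A difference was tested on Fisher-transformed r, with values centered within diets, and exact means that every split was counted. This test takes the scatter as alike in both diets, which did not hold for every gene. In the cerebrum *TGFB3* spanned 4.96 to 5.51 in CON and 5.09 to 8.67 in RES. A small p of a difference may thus reflect unequal spread or 1 library. Since 10 of the 20 pairs examined were chosen by the study on these same libraries, their differences are not independent evidence. A pair of *SMAD4* with *EIF4EBP1* that it also named in muscle was not analysed here. Another, *SMAD4* with *CDKN1A*, is a link that the study cites from earlier work. The study raised *CDKN1A* as differentially expressed and correlated with other factors in these same fetuses, so this pair is not independent evidence either. The remaining 9 are the pairs among *TGFB1*, *TGFB3* and *SMAD4* in each tissue. At an adjusted p under 0.05 for the difference, 7 of the 20 pairs passed, 6 of those chosen by the study and *SMAD4* with *CDKN1A*. None of the 9 pairs among the 3 genes passed, the lowest p being that of *TGFB1* and *SMAD4* in the liver (exact permutation p = 0.0624, adjusted p = 0.156), with r = 0.230 in CON (exact permutation p = 0.634) and -0.845 in RES (exact permutation p = 0.03, adjusted p = 0.0542). Without RES fetus 25 that pair passed (adjusted p = 0.0311, difference in r -1.17), as did *TGFB1* and *SMAD4* in muscle without RES fetus 1 (adjusted p = 0.045, difference in r -1.47). Without RES fetus 6 or without RES fetus 52, 2 of the 20 pairs passed, and once sex differences were taken out 1 did, *TGFB1* with *NKX2-1*.

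In the liver, *TGFB1* and *HDAC8*, a histone deacetylase, had r = -0.963 in CON (exact permutation p = 0.00119, adjusted p = 0.0238) and 0.919 in RES (exact permutation p = 0.000992, adjusted p = 0.00926). Spearman's rho was -0.857 in CON (exact permutation p = 0.0238, adjusted p = 0.238) and 0.893 in RES (exact permutation p = 0.0123, adjusted p = 0.041), and without the 2 fetuses farthest from the median of *TGFB1* the r values were -0.823 and 0.744. The difference had an exact permutation p of 0.000583, the smallest that all splits of the fetuses can give (adjusted p = 0.00583). The 3 RES fetuses with over 30% mitochondrial counts had the highest values of both *TGFB1* and *HDAC8* among the 14, and the RES values of *TGFB1* again formed a set of 3 and a set of 4. In the 4 RES fetuses under 30% *TGFB1* spanned only 6.39 to 6.53 and *HDAC8* 6.79 to 7.24 on the VST scale, and 4 fetuses are too few for a correlation, so neither this pair nor that with *MEF2D* is given without the libraries over 30%. The difference for *HDAC8* passed with each fetus left out in turn. *TGFB1* and the transcription factor *MEF2D* had r = 0.298 in CON (exact permutation p = 0.522) and 0.962 in RES (exact permutation p = 0.00357, adjusted p = 0.0108), rho was 0.0357 (exact permutation p = 0.963) and 0.750 (exact permutation p = 0.0663), and the difference had an exact permutation p of 0.00583 (adjusted p = 0.0194). It did not pass without fetus 1, 2, 6, 52, 55, 68 or 73 (adjusted p up to 0.138), nor with Spearman's rho (difference 0.714, exact permutation p = 0.23, adjusted p = 0.442). Values scaled by total counts were not tried for these pairs. Once sex differences were taken out, the difference was no longer called for *HDAC8*, where it went from 1.88 to 0.620 (adjusted p = 0.413), or *MEF2D*, where it went from 0.665 to 0.483 (adjusted p = 0.268).

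In the cerebrum, *TGFB1* and *NKX2-1*, a transcription factor of the ventral forebrain, had r = 0.157 in CON (exact permutation p = 0.758) and -0.950 in RES (exact permutation p = 0.00139, adjusted p = 0.00926), and rho was 0.286 (exact permutation p = 0.556) and -0.929 (exact permutation p = 0.00675, adjusted p = 0.027). Without the 2 farthest fetuses r was 0.888 in CON and -0.922 in RES. The difference had an exact permutation p of 0.000583 (adjusted p = 0.00583) and passed with each fetus left out in turn, and without fetuses 1 and 23 together r was 0.0392 in CON (exact permutation p = 0.938) and -0.905 in RES (exact permutation p = 0.00972), with an adjusted p of 0.0346 for the difference. In RES, *NKX2-1* was lowest in RES fetus 1, at 4.16 on the VST scale, next lowest in RES fetus 25, at 5.74, and between 7.10 and 7.82 in the other 5. *TGFB3* and *NKX2-1* had r = 0.911 in CON (exact permutation p = 0.00734, adjusted p = 0.0734) and -0.873 in RES (exact permutation p = 0.0379, adjusted p = 0.0583), but rho in RES was -0.429 (exact permutation p = 0.354) and r in RES was -0.472 without the 2 farthest fetuses. The difference had an exact permutation p of 0.00466 (adjusted p = 0.0186) and did not pass without RES fetus 6, 33, 52, 55 or 70 (adjusted p up to 0.0793), nor without fetuses 1 and 23 together (exact permutation p = 0.0584, adjusted p = 0.125), nor with Spearman's rho (difference -1.32, exact permutation p = 0.0163, adjusted p = 0.0544). The differences of *TGFB1* and *TGFB3* with the neuronal genes *ELAVL4* and *SLC17A6* had adjusted p between 0.234 and 0.595. Without fetuses 1 and 23, *TGFB3* with *ELAVL4* and *TGFB3* with *SMAD4* passed (exact permutation p = 0.0173 and 0.013, adjusted p = 0.0433 and 0.0383). With *ELAVL4*, r of *TGFB3* was -0.377 in CON (exact permutation p = 0.441) and -0.963 in RES (exact permutation p = 0.00139, adjusted p = 0.00926), rho in RES was -0.929 (exact permutation p = 0.00675, adjusted p = 0.027), and r in RES was -0.926 without the 2 farthest fetuses. With *SLC17A6*, r of *TGFB3* in RES was -0.974 over 7 fetuses (exact permutation p = 0.023, adjusted p = 0.0511) and -0.0495 without the 2 farthest.

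In muscle, the study named *SMAD4* as co-expressed with the myogenic factors *MYOG* and *MYOD1*, and the cell cycle inhibitor *CDKN1A* was added from the link it cites. With *MYOG*, r was 0.726 in CON (exact permutation p = 0.0651) and -0.932 in RES (exact permutation p = 0.00317), and rho was 0.643 (exact permutation p = 0.139) and -0.964 (exact permutation p = 0.00278). With *MYOD1*, r was 0.585 (exact permutation p = 0.18) and -0.923 (exact permutation p = 0.00377), and rho was 0.536 (exact permutation p = 0.236) and -0.964 (exact permutation p = 0.00278). With *CDKN1A*, r was 0.665 (exact permutation p = 0.122) and -0.938 (exact permutation p = 0.00238), and rho was 0.607 (exact permutation p = 0.167) and -0.964 (exact permutation p = 0.00278). The adjusted p of r in RES was 0.0108 for all 3 pairs. In RES, *MYOG*, *MYOD1* and *CDKN1A* were all highest in fetus 1 (11.3, 9.50 and 11.1 on the VST scale). All were lowest in fetus 25 (8.60, 7.60 and 8.31), so the 3 pairs are not separate observations. The exact permutation p of the difference was 0.00466, 0.0134 and 0.00408, in that order (adjusted p = 0.0186, 0.0383 and 0.0186). Without the 2 farthest fetuses, r in RES was -0.903, -0.857 and -0.886. The differences for *MYOG* and *CDKN1A* did not pass without RES fetus 6 or 52, and that for *MYOD1* did not pass without fetus 2, 6, 23, 25, 52, 68, 69, 70 or 73 (adjusted p up to 0.0796). With sex differences removed, all 3 had an adjusted p of 0.0524, with differences in r of -1.49, -1.47 and -1.42 in place of -1.66, -1.51 and -1.60. The span of *SMAD4* itself was small here, from 88.5 to 125 CPM over both diets, while the skeletal muscle markers summed to between 1584 and 12,164 CPM.

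**Figure D5:**
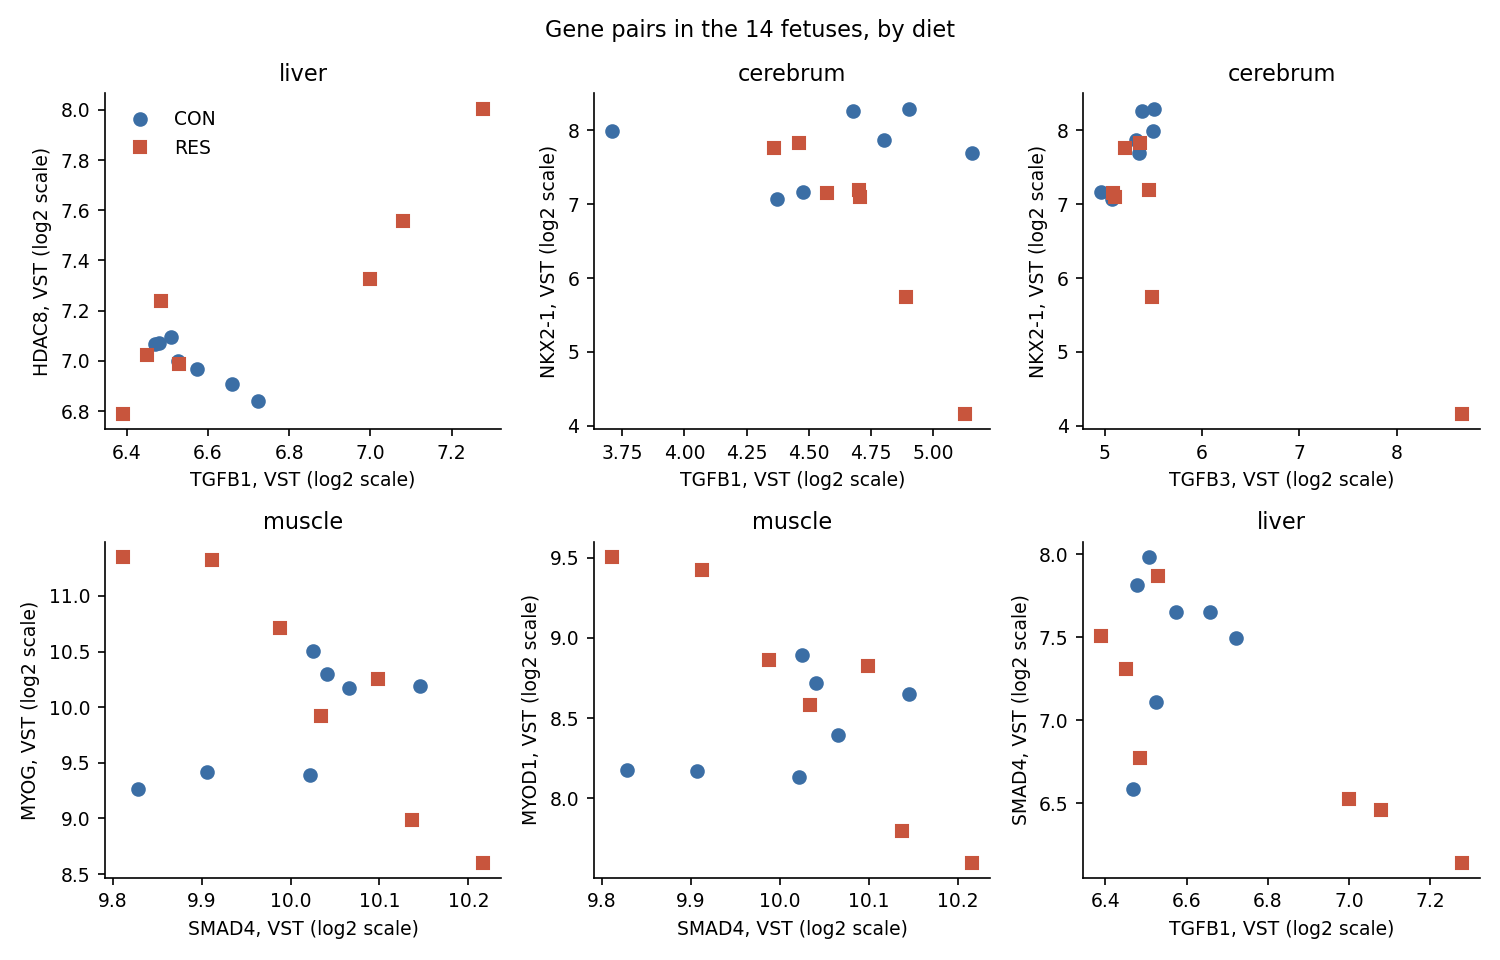
VST values (log2-like scale) of 6 gene pairs in the 14 fetuses, circles CON and squares RES. The pairs are TGFB1 with HDAC8 (liver), TGFB1 and TGFB3 with NKX2-1 (cerebrum), SMAD4 with MYOG and MYOD1 (muscle) and TGFB1 with SMAD4 (liver). In the panel of TGFB3 with NKX2-1 the RES library at the far right is fetus 1.

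The number of differentially co-expressed (DC) partners of each gene was counted over all pairs of retained genes, with Fisher-transformed correlations and a normal approximation. These counts are descriptions of the screen, since the approximation is loose with 7 fetuses per diet. In the cerebrum, *SMAD4* had 674 DC partners (5.56% of its pairs), *TGFB3* 191 (1.58%) and *TGFB1* 13 (0.107%), where 0.435% of all pairs were called. Without fetuses 1 and 23 the partners were 0 for *SMAD4*, 0 for *TGFB3* and 1 for *TGFB1*, where 0.00407% of all pairs were called. Without RES fetus 1 alone *SMAD4* had 3, *TGFB3* 0 and *TGFB1* 1 (0.00788% of all pairs), and without CON fetus 23 alone they had 11, 33 and 7 (0.136%). For *TGFB3*, 173 of the 191 partners had the higher correlation in RES. In the liver, *TGFB1* had 9 DC partners (0.0832% of its pairs, with 0.0064% of all pairs called), *HDAC8* among them, and *TGFB3* and *SMAD4* had 0. The count of *TGFB1* ran from 1 without CON fetus 68 to 140 without RES fetus 70, where 0.00626% and 0.211% of all pairs were called. In muscle, *SMAD4* had 13 (0.109%, with 0.0314% of all pairs called), *TGFB3* had 1 and *TGFB1* had 0. The count of *SMAD4* ran from 4 without CON fetus 73 to 32 without CON fetus 2, where 0.00934% and 0.0937% of all pairs were called. With sex differences removed, the counts were 1774 for *TGFB3* and 48 for *TGFB1* in the cerebrum (1.05% of all pairs called), 0 for *TGFB1* in the liver (0.00582%) and 1 for *SMAD4* in muscle (0.00584%).

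Beyond these pairs, genes with a symbol were ranked by their correlation with each of the 3 over the 42 libraries, on log2 CPM centered within each tissue. These libraries share fetuses, depth and composition, and the values are descriptions. For *SMAD4* the 5 most alike were *HSD17B12* (r = 0.935), *PLRG1* (0.935), *DR1* (0.932), *HIF1A* (0.928) and *CHSY1* (0.925), and the most opposite were *NOP2* (-0.933), *QTRT1* (-0.928) and *PUSL1* (-0.925). Without the cerebrum library of RES fetus 1 they were between 0.921 and 0.941 for the first 5 and between -0.939 and -0.919 for the last 3. Within muscle, the correlation with *HSD17B12* was -0.241 and with *NOP2* -0.124, while that with *DR1* was 0.896. For *TGFB1* the most alike were *KIAA2013* (0.798), *TCN2* (0.774), *TAPBP* (0.774), *PPP1R15A* (0.755) and *BCAM* (0.755), and the most opposite were *RAD50* (-0.658), *ZFP30* (-0.612) and *SLC38A2* (-0.595). Within muscle the correlation with *BCAM* was -0.140, where it was 0.922 within the liver and 0.825 within the cerebrum. For *TGFB3* the most alike were *CRISPLD2* (0.835), *ELN*, which encodes elastin (0.820), *RCN3* (0.818), *MARVELD1* (0.811) and *MXRA8* (0.801), and the most opposite were *GRIN1* (-0.724), *LIN7C* (-0.723) and *PGM2L1* (-0.709). Without the cerebrum library of RES fetus 1 these correlations of *TGFB3* were between 0.457 and 0.575 for the first 5 and between -0.444 and -0.250 for the last 3.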

How the data were processed

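Total RNA from 14 cerebrum, 14 liver and 14 muscle samples was sequenced as strand-specific libraries. The authors checked reads with FastQC (version 0.11.8 in the submitters' processing notes), aligned them with STAR (2.7.3a) to the bovine genome and took STAR's gene counts. The strand column kept is not given in the sources used here. The deposited values are raw read counts per Ensembl gene, 22,664 genes by 42 libraries. Their matrix pairs identifiers with no symbols, so symbols came from the study's supplementary tables (5126 identifiers). No gene lengths or sequences for the annotation were used here.

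The 3 genes, the gene lists, markers and pairs were chosen with earlier results of these data known. Pathway genes named were ligands, receptors or SMADs, or had the highest mean CPM or the lowest diet p of their list in a tissue. Not every gene that met this is named, and *ID2* was named for its value. Other genes were named if they belonged to a listed pair, led a marker list, were at 0 or overlapped between tissues. The 5 most alike and 3 most opposite were named as well.

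Genes under 1 CPM in at least 80% of libraries were dropped, which retained 15,151 cerebrum, 13,527 liver and 14,947 muscle genes, and 15,972 over all libraries. The diet effect was tested within a tissue by the quasi-likelihood test of edgeR (version 4.0.16, R 4.3.3), with TMM factors and sex as a covariate. Tissues and the diet by tissue interaction were tested in 1 fit over 42 libraries. P-values were adjusted by Benjamini-Hochberg over all retained genes. Correlations used VST values from DESeq2 (1.42.0) and exact permutation over all pairings. Their differences were taken between Fisher-transformed r, on values centered within diets. These were tested by permutation over all splits of the fetuses, two-sided, adjusted over 20 pairs. For DC screens the 20% of genes with the lowest dispersion were left out. The fits were tested on simulated data.

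Animal numbers in the labels mark the same fetus in all 3 tissues, so the samples were paired. The main fits over 42 libraries had no term for this pairing, and the replicate block was an alternative. Deviations from group means correlated between -0.228 and 0.335 across tissues of a fetus. Alternatives were DESeq2's size factors and tests, another filter on low counts and none, no sex covariate, counts without mitochondrial genes, a replicate block for fetuses, each fetus left out, log2 CPM, Spearman's rho and sex removed, and, added after seeing the data, the mitochondrial share as a covariate, total counts without TMM factors and the libraries that stood apart left out. No pair of libraries held the same values. The values of 1 listed target gene are not reported here.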

Additional observations from a re-analysis of the deposited data

Results flagged for a closer look

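Of 18 groups of 7 fetuses (3 genes, 3 tissues and both diets), 2 held a value far from the other 6 by the gap at its end against the whole range (Dixon's test), and chance flags about 1 group in 20. *SMAD4* in the cerebrum of CON fetus 23 was at 227.4 CPM, where the next highest CON library had 121.5 CPM. By total counts without TMM factors this library had 169 CPM and the next 154 CPM, and the gap was no longer past the limit. *TGFB3* in the cerebrum of RES fetus 1 was at 56.0 CPM, where the next highest RES library had 4.35 CPM, and by total counts it was at 58.7 CPM against 5.79 CPM.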

How the results depend on the processing

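The differences of *TGFB1* against the cerebrum, those of *SMAD4* against the liver and those of *TGFB3* against muscle kept their direction and call under every alternative that gave a value. *TGFB1* for liver minus muscle was not called by total counts without TMM factors, where it turned to -0.166, or with mitochondrial genes also left out of the total (0.111). On those 2 scales *TGFB3* for cerebrum minus liver passed (1.52 and 1.31), and between diets *SMAD4* in muscle turned to -0.00875 and -0.0106 and, by total counts, *TGFB1* in the liver to -0.192. DESeq2 gave no p for *TGFB3* in the fit over 42 libraries or in the cerebrum, so that value was not used. With the replicate block, *TGFB3* was -4.52 for cerebrum minus muscle and 0.0691 for cerebrum minus liver, and the block changed no call. *SMAD4* for cerebrum minus muscle turned sign to 0.0157 with DESeq2's size factors and with its Wald test, to 0.00341 with the stricter filter and to 0.219 with the mitochondrial share as a covariate, and ranged from -0.165 to -0.0164 with a fetus left out. *TGFB3* for cerebrum minus liver was 1.15 with that covariate and ranged from -0.355 to 0.646 with a fetus left out. The cause of these changes was not tested.

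Between diets, DESeq2's Wald test called 86 genes in the liver and 13 in muscle, the covariate fit called 3 in muscle, and DESeq2's likelihood ratio test called 2 for the interaction. Without fetuses 1 and 23, the cerebrum values were 0.000842 for *SMAD4*, -0.121 for *TGFB1* and -0.0397 for *TGFB3*. *TGFB1* in the liver was -0.168 without the 4 libraries over 30% mitochondrial counts, and *SMAD4* in muscle was -0.0242 with the covariate. With a fetus left out, *SMAD4* in muscle ranged from -0.0423 to 0.0528 and *TGFB1* in the cerebrum from -0.0476 to 0.331.

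Pairs passing numbered 1 with sex differences removed and between 2 and 7 with a fetus left out. With Spearman's rho, *TGFB1* with *MEF2D* (0.714) and *TGFB3* with *NKX2-1* (-1.32) were no longer called, and differences not past the threshold turned sign in the cerebrum for *TGFB1* with *SLC17A6* (0.357), *TGFB3* with *SLC17A6* (0.107) and *TGFB1* with *SMAD4* (0.143), and in muscle for *TGFB1* with *TGFB3* (0.0714) and *TGFB3* with *SMAD4* (0.179). Without fetuses 1 and 23 they turned in the cerebrum for *TGFB1* with *SLC17A6* (0.396), *TGFB3* with *SLC17A6* (0.164) and *TGFB1* with *SMAD4* (0.571). With a fetus left out, such turns gave ranges of -0.601 to 0.545 for *TGFB1* with *SLC17A6*, -0.336 to 0.191 for *TGFB3* with *SLC17A6* and -0.304 to 0.516 for *TGFB1* with *SMAD4* in the cerebrum. They gave -0.255 to 0.675 for *TGFB1* with *TGFB3* and -0.582 to 0.0708 for *TGFB3* with *SMAD4* in the liver, and -0.767 to 0.559 and -0.486 to 0.405 for the same pairs in muscle. DC partners with sex removed numbered 48 (*TGFB1*) and 1774 (*TGFB3*) in the cerebrum, 0 (*TGFB1*) and 1 (*SMAD4*) in the liver and 1 (*SMAD4*) in muscle, where 1.05%, 0.00582% and 0.00584% of all pairs were called. Without fetuses 1 and 23 they numbered 1 (*TGFB1*), 0 (*TGFB3*) and 0 (*SMAD4*) in the cerebrum. With a fetus left out they ranged in the cerebrum from 1 to 107 (*TGFB1*), 0 to 838 (*TGFB3*) and 3 to 681 (*SMAD4*). In the liver the ranges were 1 to 140, 0 to 1 and 0 to 48, and in muscle 0 to 6, 0 to 7 and 4 to 32. The share of all pairs called ranged with them from 0.00788% to 0.552% in the cerebrum, 0.00084% to 0.211% in the liver and 0.00934% to 0.0937% in muscle. Among the 3 genes, *TGFB1* in the cerebrum had the lowest counts, at 1 to 25 per library.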

Other observations

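Levels of other pathway genes differed between tissues too. *LTBP4*, a latent TGF-β binding protein, had means of 439 CPM in muscle, 98.4 CPM in the cerebrum and 27.0 CPM in the liver. *THBS1* had 242 CPM in muscle and 189 CPM in the liver, which did not differ beyond the spread (log2 difference of liver minus muscle -0.37, edgeR's adjusted p = 0.472, but -1.21 and adjusted p = 0.0230 by total counts without TMM factors), and 41.2 CPM in the cerebrum, or 17.2 CPM without RES fetus 1. *FST*, which encodes the activin antagonist follistatin, was highest in the liver, at 145 CPM against 54.8 CPM in muscle and 20.2 CPM in the cerebrum, and its log2 difference was -2.80 for cerebrum minus liver and 1.34 for liver minus muscle, both called by edgeR's test, although by total counts without TMM factors liver minus muscle was 0.16 (adjusted p = 0.265).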
